A study of Drosophila melanogaster with 14 samples.

Results

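A total of 181 piRNA entries of one dispersed repeat of the Drosophila melanogaster genome were examined, of 3326 entries in the piRNA count table. They were chosen by their listed genome locations around those of dme_piR_013953, the lead entry. An entry was taken where it had 5 or more locations and at least 50% of them (a share of 0.5) started within 7 kb of a location of the lead on the same chromosome arm. The table held 2317 entries with 5 or more locations. The lead was itself selected on earlier results of these data, so its own difference between genotypes is given as a description. Small RNA of heads was compared between 4 libraries of flies with the genotype tau transgenic and 4 libraries of flies with the genotype wild type, called tau and control here. Each library was made from RNA of pooled heads, with 2S ribosomal RNA blocked. Tau is the microtubule-binding protein that aggregates in Alzheimer's disease and other tauopathies. No source used here gives the form of tau, the driver of the transgene or the age of the flies.

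Piwi-interacting RNAs (piRNAs) are small RNAs, slightly longer than microRNAs, that guide Piwi-clade Argonaute proteins to transposon RNA. Their known role is the silencing of transposons, and it is best described in the gonads of flies and mammals. Piwi and Aubergine of Drosophila mainly bind piRNAs that begin with uridine. In the ping-pong cycle, Aubergine and Ago3 cut the transcripts of opposite strands in turn, which leaves pairs of piRNAs with a fixed overlap of their 5′ ends and an adenine at the tenth base of one partner. Entries of a piRNA database such as piRNABank are sequences once cloned as piRNAs, and a read that matches one in head RNA is not thereby shown to be bound by a Piwi protein.

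The lead entry, 25 nt long and beginning with C, had 18 listed locations. Of these, 6 lay on arm 2R, 4 on 3L, 3 on 3R, 3 on X and 2 on 2L. Those on 2L were listed at chr2L:3205061-3205085 and chr2L:4604026-4604050, both on the plus strand, in a genome build that the table does not name. Because the build is not named, the locations were not tied to annotated genes or to a transposon family. The location threshold fell in a wide gap. The members nearest to it, dme_piR_011008 and dme_piR_001464, each had 88.9% of their locations within reach of the lead, and dme_piR_006544 had 94.1%. The closest entries outside, dme_piR_004044 and dme_piR_013557, had 46.3% and 43.9%. All locations lay within reach for 126 of the 181 members.

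The repeat was listed at a near-constant number of sites. Between 16 and 20 locations were listed for 163 members, 6 to 11 for 10 members and 37 to 40 for 8 members. Each member was placed along the repeat by its distances, on the lead's strand, from every copy of the lead within 7 kb. The most frequent distance and strand were found after rounding, and the position is the median of the distances close to it. Distances run from the start of the lead to the edge of the member that comes first along the lead's strand. For a member on the opposite strand this edge is its 3′ end. Of the members, 12 were found at both ends of a copy. For each, the median distance before the lead and the median distance after it lay 6911 to 6929 nt apart. The median of these spacings was 6928 nt. They are differences of medians over copies and not spacings within single copies. Identical ends around an interior are the arrangement of a retrotransposon with long terminal repeats. The 8 members with 37 to 40 locations, close to a doubled number of copies, were all among these 12. All other members lay in the interior, from position -1534 nt, before the lead, to 4660 nt after it. The listed locations are not complete, since dme_piR_001464 lies within the sequence of dme_piR_007367 and yet has 9 locations against 19.

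The members had the length and first base of a piRNA population. Their lengths ran from 22 to 29 nt with a median of 26 nt, and 171 of the 181 were 24 to 28 nt long. A first base of T (U in the RNA) was found in 156 members (86.2%), C in 12, A in 9 and G in 4. Among the other 2136 entries with 5 or more locations, 70.2% began with T. The strand of the repeat was uneven. The lead's strand held 165 members and the opposite strand 16. An A at the tenth base was found in 36 of the 165 members on the lead's strand (21.8%), of which 87.3% began with T. On the opposite strand it was found in 10 of the 16 members (62.5%), of which 75% began with T. These are features of the listed sequences and not of the libraries.

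Members shared bases with one another. On the same strand, 105 members overlapped another by 10 nt or more, in 33 groups of up to 8 members, and 76 overlapped none. Between strands, 2 pairs had 5′ ends that overlapped by exactly 10 nt, the spacing of the ping-pong cycle. Each other overlap up to 25 nt was found in 0 or 1 pair. The first pair was dme_piR_005065 with dme_piR_016989, 117 nt after the lead, and both partners began with T and had A at the tenth base. With this overlap the first base of each partner pairs with the tenth of the other, so these bases are not separate features. Counts of dme_piR_005065 summed to 77 in tau and 45 in control, and those of dme_piR_016989 to 5 in tau and 3 in control. The second pair, 2778 nt after the lead, was dme_piR_007757 with dme_piR_008359. In it dme_piR_007757 began with C and had A at the tenth base, and dme_piR_008359 began with T and had G there. Counts of dme_piR_007757 summed to 9 in tau and 66 in control, and those of dme_piR_008359 to 4 in tau and 47 in control. Both partners of the first pair were thus more counted in tau, and both of the second more counted in control.

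Total counts over the piRNA table ran from 2826791 to 3859061 in tau and from 2870217 to 3380071 in control. The scaling factors (TMM, from a trimmed mean of log ratios between libraries) ran from 0.949 to 1.35 in tau and from 0.799 to 1.06 in control. The highest was in tau 1 and the lowest in control 1. Levels are given in CPM, the counts scaled to the size of the library. The members were sparse: the median member had 24 counts over all 8 libraries, 42 members had under 10, and the 10 most counted held 28.6% of all member counts. Counts of all members summed to 668, 1088, 725 and 1064 in tau 1 to tau 4, and to 1105, 1144, 965 and 1170 in control 1 to control 4. The summed level was 257 ± 60.2 CPM in tau and 379 ± 28.4 CPM in control (mean ± SD of 4 libraries each). The CPM of the genotypes did not overlap. At least 1 count was found for 87, 110, 98 and 107 members in tau, against 145, 152, 146 and 150 in control. In RNA of whole heads, fewer cells of a type and less RNA per cell cannot be told apart.

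The genotypes differed along the repeat in a break set at 1000 nt after the lead, an edge between steps of 500 nt. From there to the end of the interior, members were about 12.1 times lower in tau heads, on both strands. Before it, and at the ends, their summed level was not lower in tau. This split was chosen after the profile had been seen, so the values on either side are a description with no test.

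The stretch from 1000 nt held 104 members, the first 1091 nt and the last 4660 nt after the lead. Their counts summed to 47, 88, 58 and 67 in tau 1 to tau 4, and to 659, 682, 539 and 770 in control 1 to control 4. Each control library held several times the count of any tau library. The summed level was 18.9 ± 4.82 CPM in tau and 229 ± 29.1 CPM in control (mean ± SD of 4 libraries each), with control 12.1 times tau. Mean CPM was lower in tau for 100 of the 104 members, and control was more than 3 times tau for 98 of them (94.2%). Over the whole table, tau was lower for 47.1% of entries and control more than 3 times tau for 21.3%. No count in any tau library was found for 28 of the 104 members, and none in any control library for 2.

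The most counted member without a count in tau was dme_piR_011431, with 43 counts over the control libraries. Control was 17.2 times tau when tau was set to 3 counts over its 4 libraries, as the limit that a count of 0 allows. The control count was taken as exact there. The next such member was dme_piR_002366, with 32 counts in control and a value of 12.8 found in the same way. Both were picked after their values were seen, and neither had enough counts to be tested. Intervals given here cover counting error only, and the values for members without a tau count cover that of tau alone.

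The difference was found on both strands of the stretch. The 92 members on the lead's strand had 15.8 ± 3.99 CPM in tau and 196 ± 28.3 CPM in control, with control 12.4 times tau. The 12 members on the opposite strand had 3.14 ± 1.08 CPM in tau and 32.7 ± 8.51 CPM in control (mean ± SD of 4 libraries each), with control 10.4 times tau. The groups did not overlap on either strand.

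The 65 interior members before 1000 nt included 9 of the 10 members with the highest mean level, the lead among them. Their counts summed to 588, 936, 628 and 926 in tau 1 to tau 4, and to 414, 425, 388 and 366 in control 1 to control 4. Every tau library held more counts than any control library. The summed level was 223 ± 51.2 CPM in tau and 138 ± 12.5 CPM in control (mean ± SD of 4 libraries each), 1.62 times control. In CPM the groups overlapped, since tau 1 had 149.9 CPM and control 1 had 153.3 CPM, the libraries with the highest and the lowest scaling factor. The groups were apart without tau 1, without control 1, and without both (248 CPM in tau and 133 CPM in control), and with 2 of the 3 other scalings tried, library totals and TMM over entries with 5 or more locations. Mean CPM was higher in tau for 53 of the 65 members (81.5%), against 52.9% of all entries of the table.

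The 12 members at both ends had 33, 64, 39 and 71 counts in tau 1 to tau 4, and 32, 37, 38 and 34 in control 1 to control 4. Tau 1 had about the control count, and the other tau libraries had more. Their summed level was 15.0 ± 5.07 CPM in tau and 12.2 ± 1.11 CPM in control (mean ± SD of 4 libraries each), and the groups overlapped.

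The ratio of the counts on the 2 sides of the break was taken within each library, where the scaling of libraries cancels. Counts from 1000 nt over counts before it ranged from 0.0724 to 0.0940 in tau and from 1.39 to 2.10 in control. The means were 0.0847 ± 0.0103 in tau and 1.67 ± 0.304 in control (mean ± SD of 4 libraries each). The ranges were far apart: control libraries had more counts after the break than before it, and tau libraries had far fewer.

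In steps of 500 nt the direction turned from the step before 1000 nt to the step after it. All of the steps that start from -2000 to 500 nt had a higher mean in tau, 1.50 to 2.52 times control. The 2.52 was that of the step from -2000 nt, with 1 member, 15 counts in tau and 5 in control. The other steps ran from 1.50 to 1.94. All of the steps that start from 1000 to 4500 nt had a lower mean in tau, with control 8.74 to 53.7 times tau. The step from 500 to 1000 nt had 24.2 ± 5.73 CPM in tau and 12.5 ± 0.561 CPM in control. The next step, from 1000 to 1500 nt, had 0.515 ± 0.186 CPM in tau and 8.17 ± 1.99 CPM in control. The step from 4000 to 4500 nt, with 4 members, had 2 counts in all of tau and 117 in all of control, a ratio of control to tau of 70.3 on summed counts (95% exact interval 19.0 to 587). No member lay between 932 and 1091 nt, a gap of 159 nt. The 6 members from 700 nt to that gap were sparse, with 29 counts in tau and 25 in control. The exact place and sharpness of the change are thus not resolved.

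The step that begins at the lead held the highest level in both genotypes. From 0 to 500 nt there were 326, 446, 302 and 445 counts in tau 1 to tau 4, and 234, 222, 189 and 181 in control 1 to control 4. This step of 25 members had 110 ± 19.3 CPM in tau and 71.6 ± 10.7 CPM in control. After the break, the step from 2000 to 2500 nt, the highest of that stretch in both genotypes, had 4.51 ± 1.17 CPM in tau and 49.3 ± 7.48 CPM in control.

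Of the 181 members, 30 had enough counts to be tested and 151 did not. In edgeR's quasi-likelihood test with Benjamini-Hochberg adjustment over all 249 entries tested, 8 members were lower in tau and 1 was higher at an adjusted p under 0.05. Over all 249 entries, 10.4% were lower and 2.41% were higher. An unadjusted p under 0.05 was found for 12 of the 30 members and 62 of the 249 entries. All 8 lower members were the tested members of the stretch from 1000 nt, and the higher one was among the 22 tested before it or at the ends. A member of that stretch passed the filter mostly through its control counts, so the 8 of 8 is no support for the break. The number of lower members was 50 with no low-count filter, when all 181 were tested and 99 of all 3326 entries were lower. It was 16 without any single one of the tau libraries, when 38 to 40 members were tested. In those fits 36 to 46 of all 267 to 282 entries tested were lower. The median log2 fold change of the 30 members was 0.53, against 0.06 for all entries tested. That median depends on which members passed the filter, since 22 of the 30 lay before the break or at the ends. Among all 181 members, mean CPM was lower in tau for 117 (64.6%), against 47.1% of all entries of the table. Groups did not overlap for 8 tested members with tau lower and 4 with tau higher, against 14.5% and 6.83% of the 249 entries. The last tested interior member before the break was dme_piR_003190, 516 nt after the lead, with a log2 fold change of 0.91, and the first after it was dme_piR_015516, at 1852 nt, with -4.33.

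The most counted of the lower members was dme_piR_008755, a 26 nt entry on the opposite strand that begins with A, 2114 nt after the lead. It had 4, 8, 3 and 3 counts in tau and 21, 52, 26 and 43 in control. Every control library was well above every tau library, and the log2 fold change was -3.20 ± 0.44 (SE, adjusted p = 0.000518). The entry dme_piR_006420, 3057 nt after the lead, had 5, 5, 0 and 0 counts in tau and 36, 25, 24 and 39 in control. Tau 3 and tau 4 had no count, and all control libraries were high (-3.89 ± 0.69, adjusted p = 0.00172). With 1 library left out, its log2 fold change ran from -4.55 (without tau 1) to -3.47 (without tau 4).

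In 3 lower members tau held 1 to 3 counts in all. The entry dme_piR_001568, 28 nt long at 3109 nt, had 1 count in tau 2 and none in the other tau libraries, against 35, 12, 14 and 25 in control. Its ratio of control to tau on summed counts was 103 (95% exact interval 18.1 to 4130). The entry dme_piR_006186, at 2634 nt, had 1 count in tau 4 and none in the others, against 11, 12, 13 and 29 in control, a ratio of 78.1 (13.5 to 3133). Control 4 was high among the control libraries there. The entry dme_piR_015516, beginning with A, had 0, 1, 1 and 1 counts in tau and 19, 16, 11 and 13 in control, a ratio of 23.6 (7.70 to 118). Their adjusted p-values in edgeR were 0.000518, 0.000531 and 0.000531. Without tau 2, dme_piR_001568 had no count in tau, and without tau 4, dme_piR_006186 had none.

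The remaining lower members lay at 2361, 2778 and 2785 nt. The entry dme_piR_013552, 28 nt long, had 2, 2, 1 and 4 counts in tau and 22, 25, 12 and 16 in control (-3.25 ± 0.51, edgeR adjusted p = 0.000689). The entry dme_piR_014860 had 0, 2, 1 and 1 counts in tau and 15, 21, 12 and 17 in control (-4.10 ± 0.61, edgeR adjusted p = 0.000531). The entry dme_piR_007757, beginning with C, had 0, 6, 0 and 3 counts in tau and 14, 16, 23 and 13 in control (-3.10 ± 0.75, edgeR adjusted p = 0.0134). In all 3 the genotypes did not overlap. The last 2 share 18 nt on the same strand and are not separate observations of the repeat. With 1 library left out, the log2 fold change of dme_piR_007757 ran from -4.07 (without tau 2) to -2.76 (without tau 3). In the fit with a replicate block it was -3.29 and was not called (edgeR adjusted p = 0.0744).

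The 1 higher member was dme_piR_005712, a 24 nt entry that begins with T, 270 nt after the lead. It had 23, 24, 15 and 16 counts in tau and 3, 2, 7 and 2 in control. Every tau library was above every control library, and the log2 fold change was 2.15 ± 0.50 (SE, edgeR adjusted p = 0.0112). The entry passed the filter through its tau counts. It was not called in the fit with a replicate block, where the log2 fold change was 2.27 (edgeR adjusted p = 0.0546), nor when control 1 and tau 1 were both left out, where it was 2.03 (edgeR adjusted p = 0.0668). It lies among the members of the same step of 500 nt, from 0 to 500 nt, of which none of the others passed.

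The lead, with the highest mean level of the 181, had 63, 88, 48 and 71 counts in tau and 65, 45, 29 and 28 in control. Control 1 was as high as the tau libraries and the other control libraries were lower. Its level was 19.3 ± 2.91 CPM in tau and 14.5 ± 6.65 CPM in control (mean ± SD of 4 libraries each), and it did not pass (log2 fold change 0.41 ± 0.34, edgeR adjusted p = 0.477). It made up 7.70% of all member counts in tau and 3.80% in control.

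The 10 members with the highest mean level were the lead, dme_piR_008755 and 8 others, all before the break, of which none passed in edgeR. The entry dme_piR_008264, 34 nt after the lead, had 30, 60, 38 and 44 counts in tau and 48, 37, 27 and 34 in control. The groups overlapped almost entirely, with a log2 fold change of -0.02 ± 0.33 whose sign turned with library totals. The entry dme_piR_011440, at 332 nt, had 12.8 ± 4.16 CPM in tau and 9.34 ± 2.68 CPM in control. The entry dme_piR_011664 (position -60 nt) had 10.1 ± 4.53 CPM in tau and 6.41 ± 1.60 CPM in control. In these 2 the tau mean was higher and the groups overlapped. For dme_piR_010509, dme_piR_013518 and dme_piR_015677 the log2 fold changes were 1.04, 0.67 and 0.52, also with overlap.

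Among the tested members, groups did not overlap for 3 more with higher values in tau, none of which passed the adjusted threshold. The entry dme_piR_015902, the tested member farthest before the lead (position -1474 nt), had 14, 22, 15 and 33 counts in tau and 8, 9, 3 and 10 in control (1.23 ± 0.47, edgeR adjusted p = 0.116). It passed the filter mostly through its tau counts. The entry dme_piR_002994 (position -1167 nt) had 26, 44, 18 and 38 counts in tau and 17, 20, 15 and 10 in control, and its groups were separate only after scaling (0.74 ± 0.36, edgeR adjusted p = 0.233). The entry dme_piR_005205, at 447 nt, had 24, 36, 17 and 35 counts in tau and 13, 18, 15 and 18 in control, again separate only after scaling (0.53 ± 0.33, edgeR adjusted p = 0.326). At the ends of the repeat the 1 tested member, dme_piR_014537, had 4, 20, 13 and 21 counts in tau and 14, 14, 14 and 9 in control. Its groups overlapped (-0.06 ± 0.50, edgeR adjusted p = 0.969).

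Some members went against their side of the break. From 1000 nt, 4 members had a higher mean in tau, and each had 7 counts or fewer in all. The entry dme_piR_001464 had 5 counts in tau and 0 in control, although dme_piR_007367, whose sequence contains it, had 7 in tau and 70 in control. The entry dme_piR_014240 had 3 in tau and 0 in control, dme_piR_011413 had 4 in tau and 1 in control, and dme_piR_012012 had 4 in tau and 3 in control. Before 1000 nt, 12 members had a lower mean in tau, and in 2 of them control was more than 3 times tau. These were dme_piR_015183, with 0 counts in tau and 5 in control, all in control 1, and dme_piR_014574, with 0 in tau and 4 in control.

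The makeup of the member counts differed with the genotype along with the stretches. Of the member counts, 7.36% ± 0.851 lay from 1000 nt in tau and 60.2% ± 4.12 in control. The opposite strand held 1.99% ± 0.562 of member counts in tau and 9.12% ± 2.40 in control (mean ± SD of 4 libraries each), and 12 of its 16 members lie from 1000 nt. Entries with A at the tenth base held 31.8% ± 1.85 in tau and 36.2% ± 1.58 in control, without overlap. The mean length of the counted entries was 25.5 ± 0.0732 nt in tau and 26.0 ± 0.0990 nt in control, without overlap.

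Within both interior stretches the mean entry length, weighted by the summed counts of a genotype, differed less, and at the ends it differed more. From 1000 nt it was 26.2 nt in tau and 26.3 nt in control, and before 1000 nt it was 25.4 nt in both. At both ends it was 25.7 nt in tau and 26.4 nt in control. The listed entries of both stretches had a median length of 26 nt, with a mean of 26.1 nt from 1000 nt and 25.7 nt before it. A first base of T was found in 87.5% of the entries from 1000 nt and 84.6% of those before it, and A at the tenth base in 25% and 26.2%. The number of listed locations was also alike, with a median of 18 from 1000 nt and 19 before it. The number of lead copies with the member at its position was not alike. It was 18 for the lead itself, 14 for dme_piR_011861 at 927 nt, and 15 or fewer from 1000 nt. The part of this in the counts was not tested. Among member reads, 81.9% ± 1.77 began with T in tau and 83.5% ± 0.311 in control (mean ± SD of 4 libraries each), with overlap.

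In the authors' deposited table, which gives their own adjusted p-values, 114 members had one. Of these, 45 were lower in tau and 1 was higher at an adjusted p under 0.05. Over the 1044 entries with an adjusted p in the authors' deposited table, 8.14% were lower and 0.766% were higher. All 45 lay from 1000 nt after the lead. The median log2 fold change in the authors' deposited table was -2.20 for the 104 members from 1000 nt, 0.61 for the other 77 members and 0.10 for the whole table. The authors' values come from the same libraries as the edgeR values.

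The same location rule applied around dme_piR_004641 and dme_piR_002840 gave 261 and 47 entries, none of them shared with the 181. Around dme_piR_004641 the summed level was 206 ± 22.3 CPM in tau and 581 ± 137 CPM in control. Of 24 tested entries, 14 were lower in tau, against 10.4% of all 249 entries tested. The 14 include dme_piR_004641 itself, on which the rule was centred. It had 17, 27, 24 and 35 counts in tau and 381, 161, 150 and 137 in control. Around dme_piR_002840 the summed level was 10.2 ± 1.33 CPM in tau and 40.4 ± 8.70 CPM in control, and both tested entries were lower. One of these is dme_piR_002840 itself, on which the rule was centred, with 1, 0, 2 and 0 counts in tau and 22, 21, 14 and 30 in control, so it passed the filter through its control counts. The tested entries around dme_piR_004641 had log2 fold changes from -3.27, that of dme_piR_004641 itself, to -0.38. Those of the 181 members ran from -6.10 to 2.15. The difference between the repeats was not tested.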

How the data were processed

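Small RNA of heads was sequenced from 4 tau and 4 control libraries, which the series design text calls independent biological replicates. Per that text, the authors extracted reads with sortmerna against piRNABank. The submitters' processing notes name DESeq2 1.14.1 and Trimmomatic 0.36. The deposited table holds raw read counts per entry and library. It also holds the authors' log2 fold change, p-value and adjusted p-value, which are named wherever they are quoted. How reads that match several entries or copies were handled is not given in the sources used here, and neither is the build of the listed locations. Entries that overlap may have shared or split reads.

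Counts were fitted over the whole table with edgeR 4.0.16 in R 4.3.3 (TMM factors, the default low-count filter, genotype as the only term, quasi-likelihood test, two-sided), and p-values were adjusted by the Benjamini-Hochberg method with a threshold of 0.05. The fit was tested on simulated data. Alternatives were DESeq2 1.42.0, other scalings and filters, a replicate block and each library left out. Positions and sums are descriptions. The members and lists were chosen with earlier results of these data known. Named members are the lead, those past the threshold, those tested whose groups do not overlap, the 10 with the highest mean CPM and those next to the location threshold. Others were named after their values were seen: members next to the break, at the ends, in a pair or a contained sequence, without a tau count, or against their side of the break. Each member has a location on arm 2R, and no sequence is reported here. Transposon transcripts of the total RNA libraries were not analysed here.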

Additional observations from a re-analysis of the deposited data

Results flagged for a closer look

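Of 80 groups of 4 libraries examined, 9 held a library that stood apart from the other 3, where chance gives about 1 in 20. In tau, 3 of these rest on 1 or 2 counts against none: dme_piR_001568 had 0.258 CPM in tau 2 and 0 in the others, dme_piR_006186 had 0.290 CPM in tau 4 and 0 in the others, and the step from 4000 nt had 0.745 CPM in tau 3 and 0 in the others. The step from 4500 nt had 1.03 CPM in tau 2 and 0.255 to 0.373 CPM in the other tau libraries. In tau 1, which had the highest scaling factor, dme_piR_015677 had 5.10 CPM against 7.82 to 8.12 CPM in the other tau libraries, and the step from -500 nt had 13.8 CPM against 42.5 to 44.1 CPM.

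In control, dme_piR_006186 had 9.82 CPM in control 4 and 3.75 to 4.74 CPM in the other control libraries. The step from 1000 nt had 11.1 CPM in control 1 and 6.77 to 7.50 CPM in the others. The 12 members at both ends had 13.8 CPM in control 3 and 11.5 to 11.9 CPM in the others. The part of the scaling factors in these values was not tested.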

How the results depend on the processing

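All lower calls lay from 1000 nt in each setting tried. Their number was 8, also with DESeq2 and the other scalings, and 9 with a filter of 10 counts in 4 libraries. Of all 249 entries tested, 26 were lower in the main fit, 28 with DESeq2 and 21 to 28 with the other scalings. With the filter of 10 counts, 29 of all 261 were lower. The number of lower members was 50 with no low-count filter (181 members tested), where 99 of all 3326 entries were lower. With 1 library left out it was 8 to 16, where 26 to 46 of all 255 to 282 entries tested were lower. The number of lower members was 16 without tau 1, tau 2, tau 3 or tau 4, where 38 to 40 members passed the filter. There, 36 to 46 of all 267 to 282 entries tested were lower. The 8 calls were kept in these settings except dme_piR_006186, which was not tested without control 4. The single higher call became 2 with no low-count filter and 0 without control 1 and tau 1 together, a setting chosen after seeing the data. In these fits 24 of all 3326 and 3 of all 251 entries were higher, against 6 of 249 in the main fit. With a replicate block there were 7 lower and 0 higher calls. Of all 249 entries tested with the block, 20 were lower and 3 were higher. No pairing of libraries by number was seen: the correlations of same-numbered deviations were -0.37, -0.35, 0.28 and 0.11. Of 8 libraries, 2 correlated best with their own number. With 4 libraries per genotype these correlations cannot tell whether libraries of the same number were handled together. The log2 fold change of dme_piR_008264 (-0.02) reversed to 0.17 with library totals, 0.090 with no filter and 0.30 without control 1 and tau 1, and ran from -0.13 to 0.19 with 1 library left out, with 0.19 without control 1; the cause was not tested. Over the whole table the median log2 fold change was 0.27 with library totals, against 0.06. Control over tau from 1000 nt was 10.5 to 12.9 in every setting, and tau over control before it 1.51 to 1.87. Without the most counted member, entries that begin with T held 88.8% of member counts in tau and 86.8% in control. A share of 0.8 of the locations left all calls as they were. A reach of 3 kb left 137 members with 6 lower calls and 1 higher, since dme_piR_006420 and dme_piR_001568 lie beyond it. The transposon family test was not run, since no reference ties the locations to a family. Depth limits the data: 151 members had too few counts to be tested.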
